A study of Mus musculus with 16 samples.

Results

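The comparison was between stretched and control immune cells of mouse skin, across 14183 genes with enough reads in bulk RNA sequencing. Its members were the 8 libraries of 16 whose titles mark them as immune, 4 from stretched and 4 from control skin. Columns of the deposited count table were tied to samples by the label each sample carries in its description. Stretched skin had been exposed to hypobaric pressure, a suction that pulls the skin outward, and its cells were taken after 6 h. Control cells came from unstretched skin of the corresponding area. The other 8 libraries held the non-immune (stromal) cells of the same skin, again 4 stretched and 4 control, and are used below only where a difference between the fractions was tested or set beside the immune values. Strain, sex, age, the number of animals and any pooling are not stated in the sources used here. Whether the libraries of a group come from separate animals is thus unknown, and the p-values cover only the spread from library to library, which may be technical. Libraries are named by the number in their titles, and series of values run in title order: 3, 4, 5 and 6 for the controls and 1, 2, 7 and 8 for the stretched libraries.

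Skin holds resident leukocytes (macrophages, dendritic cells, Langerhans cells, mast cells and T cells) and takes in monocytes and neutrophils from blood after injury. Dendritic cells and macrophages present peptides to helper T cells on MHC class II, a heterodimer that is chaperoned by the invariant chain and loaded in late endosomes. Activated leukocytes raise glycolysis and the pentose phosphate pathway and rebuild their actin cortex, and genes of the AP-1 and NF-kB families respond within minutes to hours to stress and to tissue dissociation.

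*Ptprc*, which encodes the leukocyte surface phosphatase CD45 and marks the sorted cells, was present at 320 to 568 CPM (counts scaled by the library total to a common depth) in the 4 immune controls and at 370 to 482 CPM in the 4 stretched immune libraries. The 8 stromal libraries held 0.064 to 3.87 CPM. On the scale used for all further values of separate genes, CPM with TMM scale factors that align libraries on the bulk of their genes, *Ptprc* stood at 327, 272, 646 and 513 CPM in the controls and at 364, 719, 434 and 410 CPM in the stretched libraries. The groups overlapped, and the log2 fold change (stretched minus control) was 0.13 ± 0.36 (SE, 4 libraries per group, edgeR adjusted p = 0.87).

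Total counts ran from 2645421 to 6662268 in the controls and from 7018743 to 20095580 in the stretched libraries, so depth did not overlap between the groups, and depth and treatment cannot be told apart. A pair of libraries stood apart. Control 4 had reads on 35303 genes, against 20429 to 25768 in the other 7 immune libraries, and held 6209 CPM on olfactory and vomeronasal receptor genes, against 36.1 to 69.9 CPM. Stretched 2 held 40264 CPM summed over 15 neutrophil markers, against 1424 to 1767 CPM in the other stretched libraries and 1869 to 11118 CPM in the controls. List medians are therefore given with all 8 libraries and without these 2. In bulk RNA, fewer cells of a type and less RNA per cell cannot be told apart.

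No gene passed the edgeR quasi-likelihood test with all 8 libraries at an adjusted p under 0.05 (0% of 14183 genes, smallest adjusted p 0.134). Before adjustment, 2467 genes (17.4%) had a p under 0.05. DESeq2 called 781 genes (5.51%), 396 higher and 385 lower in stretched cells, and limma-voom with quality weights called 888 (6.26%), 417 higher and 471 lower. The calls of these tools shared 523 genes, 264 of them higher and 259 lower. In 931 genes (6.56%) every stretched library lay above every control, and in 752 (5.3%) every stretched library lay below. Overlap of separate genes is judged on the TMM scale throughout. Stretched 2 had the lowest TMM factor, 0.673, and control 4 the highest, 1.46. Some genes described below as free of overlap do overlap when scaled to library totals instead. Without control 4 and stretched 2 the edgeR test called 21 genes, 18 higher and 3 lower. The groups then did not overlap for 2219 genes above the controls (15.6%) and 1978 below (13.9%), so more genes lack overlap by these counts when fewer libraries enter. Leaving out stretched 2 alone gave 45 calls, 35 higher and 10 lower. Since the edgeR test called nothing with all libraries, values are described below as higher or lower, and a call is credited to the tool that made it.

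The genes with the smallest p and groups that did not overlap included a basic leucine zipper factor, an actin regulator and the entry enzyme of the pentose phosphate pathway. *Mafk* (ENSMUSG00000018143, chromosome 5, 139791513 to 139802653, GRCm38) encodes a small Maf protein that binds DNA as a partner of NRF2 and of BACH factors. The controls held 31.7, 25.1, 36.8 and 46.0 CPM and the stretched libraries 109, 119, 101 and 143 CPM. Every stretched library lay above every control, by 1.76 ± 0.25 on the log2 scale (edgeR adjusted p = 0.134). *Coro1b* (ENSMUSG00000024835, chromosome 19, 4148619 to 4154035), a coronin of the branched actin network, stood at 32.1, 11.1, 21.4 and 45.3 CPM in the controls and at 150, 143, 146 and 156 CPM in the stretched libraries. The 4 stretched values lay close together, while the controls spread from 11.1 to 45.3 CPM, and the log2 fold change was 2.43 ± 0.38. *Coro1b* passed the test under 6 of 20 alternative settings and *Mafk* under 5, DESeq2 and limma-voom among them for both genes. *G6pdx* (chromosome X, 74409483 to 74429194), glucose-6-phosphate dehydrogenase, held 13.1, 9.13, 25.3 and 23.5 CPM in the controls and 51.1, 106, 72.6 and 64.9 CPM in the stretched libraries. All stretched values were above all controls, with stretched 2 the highest, and the log2 fold change was 2.04 ± 0.37.

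**Figure D1:**
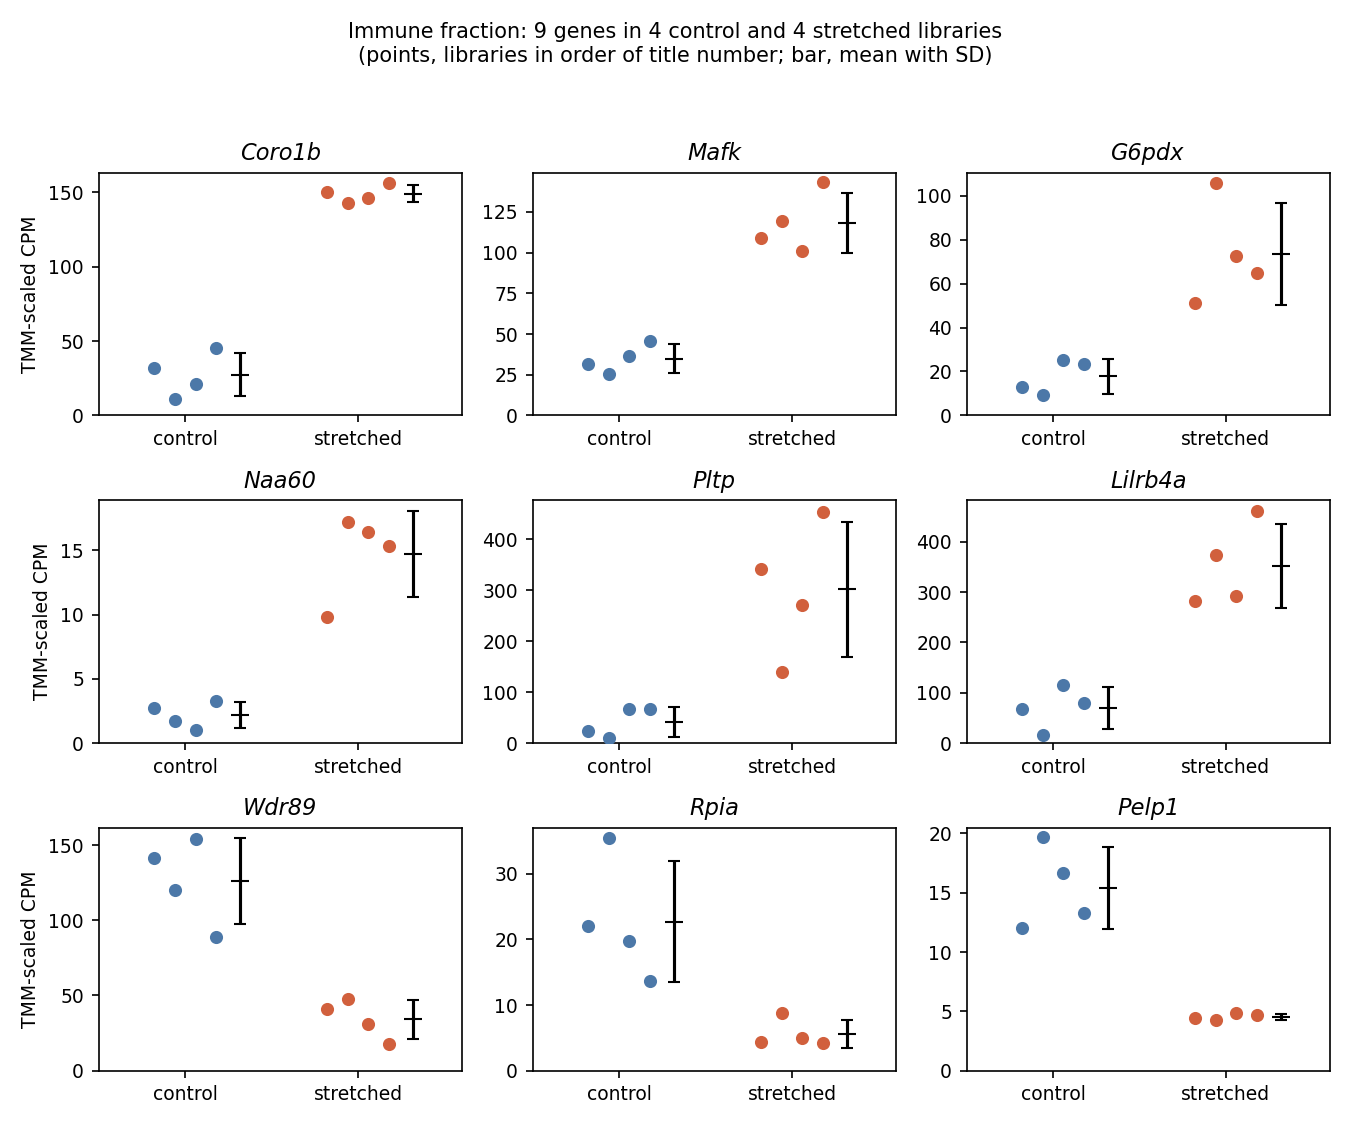
TMM-scaled CPM (linear axis from 0) of 9 genes in the 4 control and 4 stretched immune libraries. Points are libraries and the black bar is the mean with its SD. In each panel the groups do not overlap. *Coro1b* lies at 11.1 to 45.3 CPM in controls and 143 to 156 CPM in stretched cells, and *Wdr89* at 88.9 to 154 and 17.6 to 47.6 CPM.

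Other genes with small p and higher values had varied roles. *Pltp*, phospholipid transfer protein, is a target of the liver X receptors in macrophages. It stood at 23, 10.6, 67 and 66 CPM in the controls and at 342, 139, 271 and 455 CPM in the stretched libraries. The lowest stretched library, number 2, was still above the highest control, and the log2 fold change was 2.85 ± 0.60. *Lilrb4a* encodes an inhibitory immunoglobulin-like receptor of myeloid and mast cells and has a close paralog beside it, so its reads are uncertain. It held 67.6, 16, 116 and 78.8 CPM in the controls and 281, 373, 292 and 460 CPM in the stretched libraries, a log2 fold change of 2.34 ± 0.50. *Ucp2*, a mitochondrial inner membrane carrier, held 229, 154, 336 and 448 CPM in the controls and 791, 837, 937 and 1012 CPM in the stretched libraries. These groups were separated by a gap from 448 to 791 CPM, and the log2 fold change was 1.61 ± 0.36. *Cers2*, which makes very long chain ceramides, held 66.6 to 95.05 CPM in the controls and 176 to 208 CPM in the stretched libraries (1.25 ± 0.23). Adjusted p was 0.134 for each of these 4 genes, and DESeq2 and limma-voom called all 4.

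Several further genes had the same shape. *Naa60*, an N-terminal acetyltransferase of the Golgi, held 2.75, 1.71, 1.04 and 3.25 CPM in the controls and 9.82, 17.2, 16.4 and 15.4 CPM in the stretched libraries, a log2 fold change of 2.70 ± 0.43. *Lce1m*, a late cornified envelope gene of keratinocytes, held 18.8 to 25.6 CPM in the controls and 49.2 to 85.9 CPM in the stretched libraries. *Tm9sf1* (1.44 ± 0.23), *Oaf* (1.84 ± 0.33), *Tspan31* (1.52 ± 0.27) and *Wsb2* (1.10 ± 0.20) also had groups that did not overlap. *Ppp1ca*, the alpha catalytic subunit of protein phosphatase 1, is a neighbour of *Coro1b* on chromosome 19. It held 126, 28, 58.6 and 152 CPM in the controls and 260, 315, 330 and 293 CPM in the stretched libraries (1.71 ± 0.46, adjusted p = 0.163). For *Plk3*, a stress-responsive kinase, the groups did not overlap, but stretched 2 stood at 322 CPM and the other 3 stretched libraries at 63.8 to 86.1 CPM, against 23.1 to 56.3 CPM in the controls.

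The class II antigen presentation genes had higher mean values, but the groups overlapped in 5 of those tested. Of 12 list members 11 had enough reads, and all 11 had a positive log2 fold change, with a median of 1.17 against -0.02 over all genes tested. The edgeR test called 0 of the 11, DESeq2 called 2 (5.51% of all genes) and limma-voom called 3 (6.26% of all genes). In 6 of the 11 every stretched library was above every control on the TMM scale, against 6.56% of all genes tested, and in 0 every stretched library was below. Scaled to library totals, stretched 2 lay inside the range of the controls for *H2-Ab1*, *H2-Eb1*, *H2-DMa* and *H2-DMb1*, so these genes then overlapped. Without control 4 and stretched 2 the median was 1.09 and 7 members lay above the controls, against 15.6% of all genes on those libraries, and over the omission of each library in turn the median ran from 0.92 to 1.31. The genes lie together on chromosome 17 except for those of the invariant chain, the transactivator and cathepsin S.

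The upstream sequences of 4 class II genes are shown as a description, because several members hold a known short element next to the gene start. Any part of this element in the values was not tested. The Y box is a CCAAT element bound by NF-Y and is part of the conserved class II upstream module. Its core was searched as TGATTGG on both strands in windows of 300 bases, 250 before and 50 after each gene start (RefSeq, GRCm38.p6). It occurred in 7.82% of 32851 windows. Of the 12 list members 9 had a window, and 7 of these 9 held the core, while *H2-DMa* and *Ctss* did not. Among the 7 was *H2-Eb2*, which had too few reads to be tested, and *H2-Ab1*, *Cd74* and *Ciita* had no window. A match is a description of the letters and not evidence of binding. The genes printed encode an alpha chain, a beta chain, a subunit of the peptide loader H2-DM and a subunit of its partner H2-O, each from 60 bases before the core to 20 after it, with the core in capitals.
H2-Aa: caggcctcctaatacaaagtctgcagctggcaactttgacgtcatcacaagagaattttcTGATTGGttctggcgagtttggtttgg
H2-Eb1: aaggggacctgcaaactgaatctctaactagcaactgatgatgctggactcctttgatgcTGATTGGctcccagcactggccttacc
H2-DMb1: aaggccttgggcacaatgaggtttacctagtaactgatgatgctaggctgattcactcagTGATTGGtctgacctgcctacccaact
H2-Oa: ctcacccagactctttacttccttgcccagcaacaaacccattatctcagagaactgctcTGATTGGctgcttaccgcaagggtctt
The *H2-Aa* stretch is chr17:34287847-34287933 on the minus strand. The stretches of *H2-Eb1* (chr17:34305746-34305832), *H2-DMb1* (chr17:34153068-34153154) and *H2-Oa* (chr17:34092274-34092360) are on the plus strand. The core began 50, 61, 63 and 45 bases before the gene start in *H2-Aa*, *H2-Eb1*, *H2-DMb1* and *H2-Oa*.

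Among the chains that bind peptide, *H2-Ab1* (beta chain of I-A) held 5942, 2380, 7604 and 6625 CPM in the controls and 10664, 8926, 13765 and 15324 CPM in the stretched libraries. Every stretched library was above every control, and the log2 fold change was 1.11 ± 0.49 (edgeR adjusted p = 0.28). *H2-Eb1* (beta chain of I-E) held 2639, 958, 3981 and 3181 CPM in the controls and 5872, 4500, 6640 and 7877 CPM in the stretched libraries, a log2 fold change of 1.21 ± 0.49 with no overlap. *H2-Aa* (alpha chain of I-A) held 1714 to 6323 CPM in the controls and 5824 to 10121 CPM in the stretched libraries. Here control 5, the highest control, was above stretched 2, the lowest stretched library. *Cd74*, the invariant chain that guards the groove and guides the heterodimer to endosomes, held 6269, 2336, 7284 and 6305 CPM in the controls and 15291, 10594, 17488 and 24656 CPM in the stretched libraries. Its log2 fold change was 1.62 ± 0.53 (adjusted p = 0.198), and both DESeq2 and limma-voom called it.

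The peptide loading genes had the same direction. *H2-DMb1* held 215, 120, 421 and 415 CPM in the controls and 614, 501, 884 and 845 CPM in the stretched libraries (1.28 ± 0.43, adjusted p = 0.202). *H2-DMa* held 149, 96.5, 343 and 336 CPM in the controls and 506, 368, 662 and 644 CPM in the stretched libraries (1.24 ± 0.43). In both genes the groups did not overlap. *H2-DMb2*, a near-identical copy of *H2-DMb1* with uncertain read assignment, overlapped between the groups. *H2-Oa* and *H2-Ob* encode H2-O, the inhibitor of H2-DM. *H2-Oa* was low, at 2.11, 0.856, 0 and 3.25 CPM in the controls and at 3.89, 5.53, 6.97 and 6.47 CPM in the stretched libraries. *H2-Ob* had a log2 fold change of 1.02 ± 0.41 with overlapping groups. *Ctss*, the cathepsin that trims the invariant chain, held 492 to 1459 CPM in the controls and 1283 to 2054 CPM in the stretched libraries (0.77 ± 0.39). *Ciita*, the class II transactivator, held 19.7, 28, 42.5 and 28.7 CPM in the controls and 27.5, 28.1, 33.0 and 34.5 CPM in the stretched libraries. Its log2 fold change was 0.05 ± 0.26, and its sign turned with the upper-quartile scale factors and without control 3, stretched 7 or stretched 8 (-0.09 to -0.007). Control 5 was above every stretched library.

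**Figure D2:**
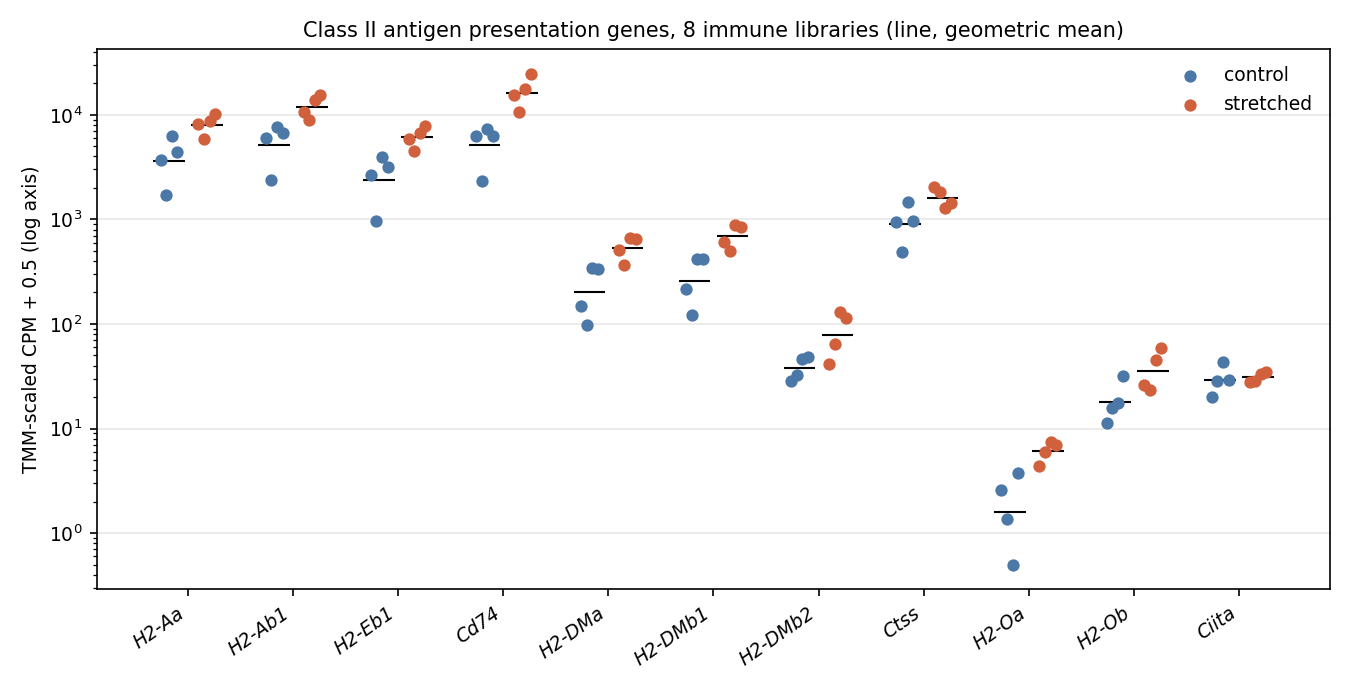
TMM-scaled CPM plus 0.5 (log axis) of the 11 class II antigen presentation genes tested, in 4 control and 4 stretched immune libraries. Points are libraries and lines are geometric means. *Cd74* lies at 2336 to 7284 CPM in controls and 10594 to 24656 CPM in stretched cells, while *Ciita* overlaps.

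Summed over the list and scaled to the library total instead, the class II genes held 19521, 10831, 23492 and 24731 CPM in the controls and 43853, 21889, 51051 and 62958 CPM in the stretched libraries. On this scale stretched 2 lay inside the range of the controls and the other 3 stretched libraries above it. Stretched 2 had the lowest TMM factor, 0.673, and control 4 the highest, 1.46. Dendritic cell markers moved in part with the class II genes. Of 15 markers 10 had higher and 5 lower values (median 0.34, and 0.10 without control 4 and stretched 2). Their sum was 998 to 1765 CPM in the controls and 1970, 1098, 2662 and 2834 CPM in the stretched libraries. As with the class II sum, stretched 2 lay inside the range of the controls and the other stretched libraries above it. None of the 15 markers was without reads in any immune library, and their part in the class II values was not tested. The markers named next had the smallest p of the list and were all among the higher ones. None of the 5 lower markers is named. *Mgl2*, a lectin of dermal dendritic cells and macrophages, held 244, 60.2, 178 and 268 CPM in the controls and 440, 268, 984 and 819 CPM in the stretched libraries. The groups did not overlap, but stretched 2 and control 6 were nearly level, and the log2 fold change was 1.74 ± 0.53 (adjusted p = 0.185). Scaled to library totals, *Mgl2* in stretched 2 lay inside the range of the controls. *Cd209a*, a lectin of monocyte-derived dendritic cells, overlapped in stretched 2 only, at 185 CPM against 76.2 to 220.5 CPM in the controls and 364 to 761 CPM in the other stretched libraries. *Zbtb46*, the transcription factor of conventional dendritic cells, had a log2 fold change of 0.96 ± 0.37 with overlapping groups.

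Enzymes of glycolysis and the pentose phosphate pathway had mostly higher values, with exceptions inside the pathway. Of 22 genes 19 were higher and 3 lower, with a median of 0.70. In 8 genes every stretched library was above the controls (6.56% of all genes tested were), and in 3 every stretched library was below (5.3% of all genes). No member was called by edgeR, 6 were called by DESeq2 (5.51% of all genes) and 5 by limma-voom (6.26%). The pentose phosphate part of the list was drawn up with *G6pdx* already known as a gene of small p, so that gene is not independent of it. *Pgam1*, phosphoglycerate mutase, held 8.24, 3.71, 8.60 and 13.6 CPM in the controls and 26.6, 43.1, 37.7 and 31.3 CPM in the stretched libraries (2.0 ± 0.37, adjusted p = 0.134). *Eno1*, enolase, held 219, 106, 223 and 258 CPM in the controls and 304, 1155, 510 and 457 CPM in the stretched libraries (1.59 ± 0.45). *Gapdh* held 217, 141, 186 and 205 CPM in the controls and 287, 1033, 437 and 360 CPM in the stretched libraries (1.5 ± 0.42). In these last 2 genes the groups did not overlap and stretched 2 was far above the other stretched libraries. *Eno1*, *Gapdh* and *Pgam1* have processed pseudogenes, so their read assignment is uncertain.

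The other members without overlap complete the count and lie outside the rule for named genes, so they were chosen after their values were seen. *Aldoa* (1.25 ± 0.36), *Hk1* (0.82 ± 0.27), *Ldha* (0.82 ± 0.32) and *Tpi1* (0.80 ± 0.29) were above the controls in every stretched library. *Hk2*, the inducible hexokinase, was below them at 123 to 158 CPM against 167 to 494 CPM (-0.96 ± 0.36), and *Tkt*, transketolase, at 87.8 to 120 CPM against 123 to 202 CPM (-0.65 ± 0.25). *Rpia*, ribose-5-phosphate isomerase of the non-oxidative branch, held 22, 35.4, 19.8 and 13.7 CPM in the controls and 4.35, 8.71, 4.95 and 4.25 CPM in the stretched libraries. Its log2 fold change was -2.04 ± 0.39 (adjusted p = 0.134), and DESeq2 and limma-voom called it lower. The list sum in stretched 2 was 6606 CPM, against 3542 to 4471 CPM in the other stretched libraries and 2782 to 3596 CPM in the controls. Without stretched 2 and control 4 the median was 0.23, with 8 genes above and 4 below (15.6% and 13.9% of all genes on those libraries), and the part of the neutrophil transcripts in stretched 2 was not tested.

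The actin list, coronins and other regulators of the leukocyte cortex, had 16 of 22 members higher and 6 lower, with a median of 0.65. In 7 members the stretched libraries were above all controls (6.56% of all genes) and in 0 below. It was drawn up with *Coro1b* known. *Coro1c* held 20.9, 32.8, 36.8 and 37.6 CPM in the controls and 49.8, 47.8, 60.1 and 72.8 CPM in the stretched libraries (0.85 ± 0.26, adjusted p = 0.184), with no overlap. Scaled to library totals, *Coro1c* in stretched 2 lay inside the range of the controls. *Coro1a*, the coronin of leukocytes, held 253, 157, 291 and 463 CPM in the controls and 456, 1152, 648 and 551 CPM in the stretched libraries (1.27 ± 0.42). Stretched 1 lay just under control 6, so these groups touched. *Coro1a* overlaps the end of *Bola2*, and without a stated strand setting their reads there cannot be told apart. *Actg1*, cytoplasmic gamma actin, held 253 to 555 CPM in the controls and 670 to 1757 CPM in the stretched libraries (1.33 ± 0.39). Without control 4 and stretched 2 the median was 0.29, with 8 members above the controls (15.6% of all genes) and 2 below (13.9%).

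Lysosomal and phagocytic genes had 16 of 18 members higher and 2 lower (median 0.64, and 0.45 without control 4 and stretched 2). In 4 members the stretched libraries were above all controls (6.56% of all genes), and DESeq2 called 4 (5.51% of all genes) and limma-voom 5 (6.26% of all genes). *Lamp1*, the main lysosomal membrane glycoprotein, held 172, 96.2, 205 and 142 CPM in the controls and 482, 282, 355 and 428 CPM in the stretched libraries (1.33 ± 0.31, adjusted p = 0.142). Its groups did not overlap, and DESeq2 and limma-voom called it. *Gpnmb*, a glycoprotein of lipid-laden macrophages, overlapped, with stretched 2 at 25.9 CPM beside controls at 17.7 to 28 CPM and the other stretched libraries at 37.2 to 82.1 CPM. Markers of resident macrophages had 10 of 15 members higher and 5 lower (median 0.25, and 0.14 without control 4 and stretched 2), summed to 1699 to 4429 CPM in the controls and 1271 to 6033 CPM in the stretched libraries, and none was without reads. Their part in the lysosomal values was not tested.

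**Figure D3:**
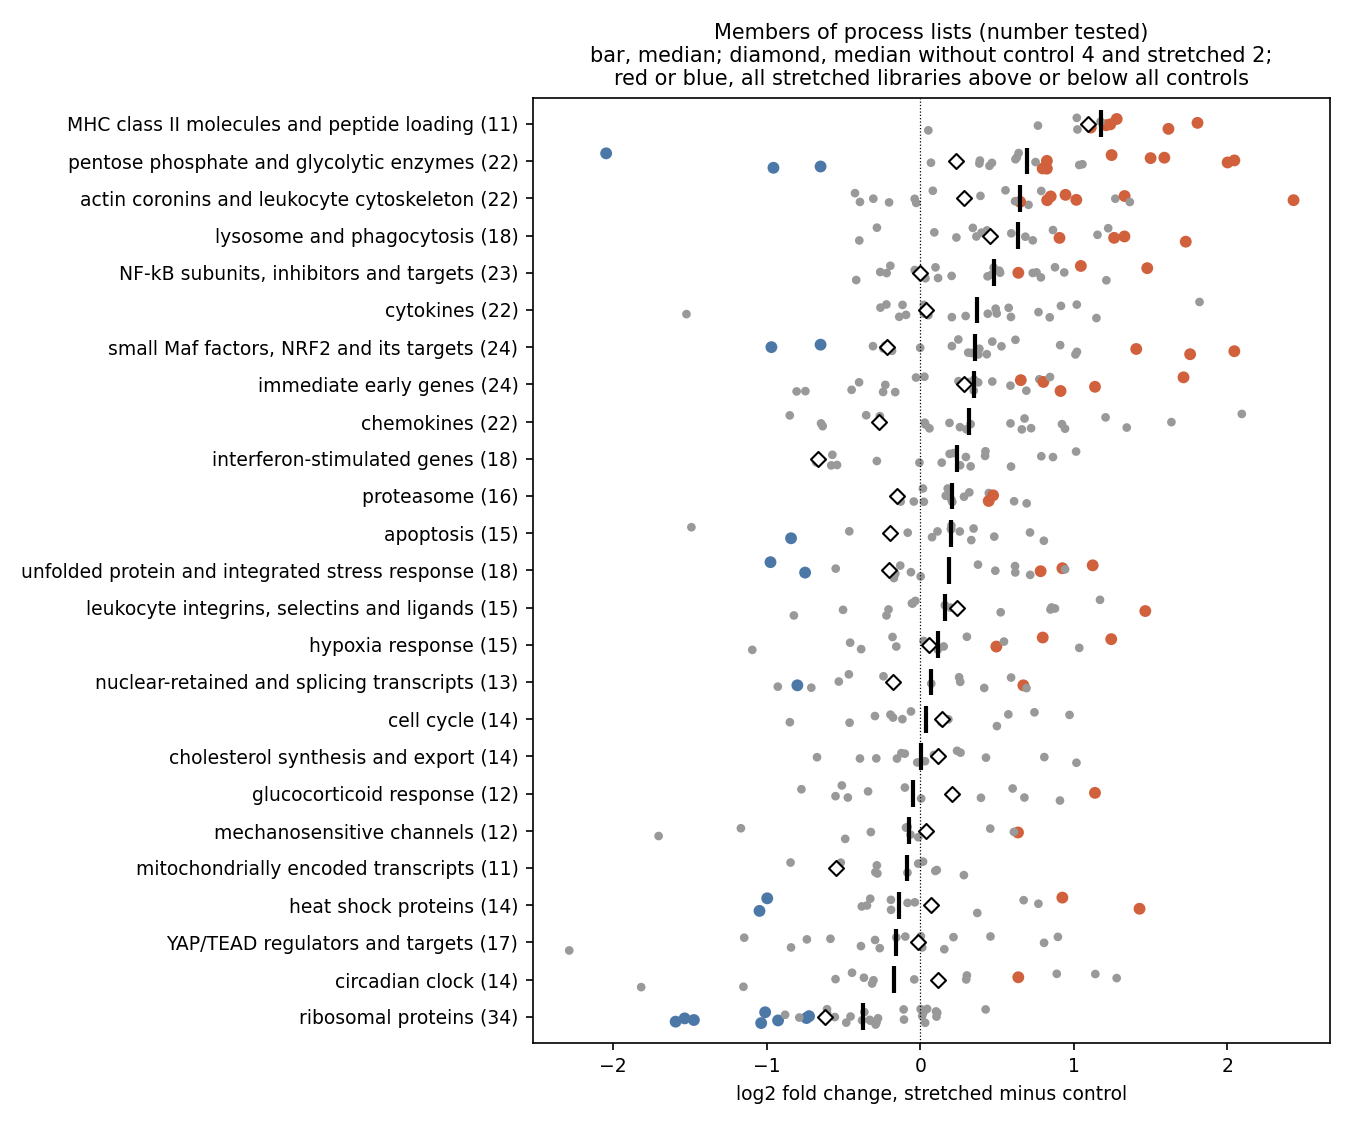
Log2 fold change (stretched minus control) of each tested member of the process lists, ordered by median, with the number tested in brackets. Red and blue points are genes whose 4 stretched libraries all lie above or below the 4 controls, bars are medians, and diamonds are medians without control 4 and stretched 2. The class II list has the highest median, 1.17, and the ribosomal protein list the lowest, -0.37.

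Signalling and stress genes were mixed. Of 23 NF-kB subunits, inhibitors and targets 18 were higher and 5 lower (median 0.48), but without control 4 and stretched 2 the median was 0.00. *Bcl3*, a nuclear IkB protein and coactivator of p50 and p52, held 57.1, 44.5, 113 and 102 CPM in the controls and 195, 286, 166 and 236 CPM in the stretched libraries. These groups did not overlap (1.48 ± 0.35, adjusted p = 0.142), and DESeq2 and limma-voom called the gene. The subunit *Rela* held 93.6 to 138 CPM in the controls and 155 to 219 CPM in the stretched libraries (0.64 ± 0.24), and the inhibitor *Nfkbib* held 49.7 to 193 CPM and 206 to 282 CPM (1.05 ± 0.38). Scaled to library totals, *Rela* in stretched 2 lay inside the range of the controls. *Relb* (0.76 ± 0.25) overlapped slightly.

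Of 24 immediate early genes 16 were higher and 8 lower (median 0.35, and 0.28 without control 4 and stretched 2), 5 of them with no overlap and above the controls (6.56% of all genes). *Fosl1*, the AP-1 subunit FRA-1, held 6.13, 2.57, 1.82 and 4.75 CPM in the controls and 9.54, 15.5, 9.71 and 16.2 CPM in the stretched libraries (1.71 ± 0.44, adjusted p = 0.156). *Dusp1*, a phosphatase of stress-activated kinases, held 3116, 1461, 3059 and 2177 CPM in the controls and 3731, 7543, 5192 and 5126 CPM in the stretched libraries (1.14 ± 0.42). *Atf3* held 384 to 840 CPM in the controls and 865 to 1563 CPM in the stretched libraries (0.91 ± 0.36), and *Dusp2* 154 to 273 and 280 to 458 CPM (0.65 ± 0.28). Scaled to library totals, *Atf3* in stretched 2 and *Dusp2* in stretched 7 lay inside the range of the controls.

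Of 24 genes of the small Maf and NRF2 list, drawn up with *Mafk* known, 16 were higher and 8 lower (median 0.36). Without control 4 and stretched 2 the median was -0.21, with 3 members above and 6 below the controls. On those libraries 15.6% of all genes lay above and 13.9% below, so the share above was no higher than over all genes. *Srxn1*, sulfiredoxin, held 68.0, 46.2, 105 and 55.9 CPM in the controls and 132, 245, 183 and 171 CPM in the stretched libraries, with no overlap (1.41 ± 0.32, adjusted p = 0.134). *Nfe2l1*, a relative of NRF2 that controls proteasome genes, was below the controls in every stretched library, at 35.9 to 58.5 CPM against 70.4 to 124 CPM (-0.97 ± 0.26).

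Heat shock genes split by family member. Of 14, 5 were higher and 9 lower (median -0.14), 2 above and 2 below the controls without overlap (6.56% and 5.3% of all genes). The sign of the median turned without control 4 and stretched 2 (0.07), with 3 above and 2 below (15.6% and 13.9% of all genes). *Hsf1*, the master transcription factor of the heat shock response, held 12.05, 8.85, 12.8 and 32 CPM in the controls and 38.5, 33.4, 48.7 and 57.7 CPM in the stretched libraries (1.43 ± 0.40, adjusted p = 0.165). *Hsp90aa1*, the inducible cytosolic HSP90, held 2489, 2662, 3094 and 2474 CPM in the controls and 1232, 1133, 1092 and 1733 CPM in the stretched libraries (-1.05 ± 0.33). *Hspe1*, the mitochondrial co-chaperonin, held 475 to 555 CPM in the controls and 230 to 327 CPM in the stretched libraries (-1.0 ± 0.25). These 3 genes did not overlap on the TMM scale and were called by DESeq2. Scaled to library totals, *Hsf1* in stretched 2 lay inside the range of the controls. Limma-voom called *Hsp90aa1* and *Hspe1* but not *Hsf1*.

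Of 18 genes of the unfolded protein and integrated stress responses 10 were higher and 8 lower (median 0.19). The median turned to -0.20 without control 4 and stretched 2, with 3 members above and 4 below the controls (15.6% and 13.9% of all genes on those libraries). *Xbp1*, the factor spliced by IRE1, held 152, 94.5, 136 and 135 CPM in the controls and 231, 297, 303 and 298 CPM in the stretched libraries (1.12 ± 0.25, adjusted p = 0.134). *Hspa5* (BiP) held 437 to 837 CPM in the controls and 845 to 1567 CPM in the stretched libraries (0.93 ± 0.35), and *Herpud1* 78.5 to 98.9 and 107 to 209 CPM (0.78 ± 0.26). Scaled to library totals, *Hspa5* and *Herpud1* in stretched 2 lay inside the range of the controls. *Atf5* was lower in every stretched library (-0.97 ± 0.34), but its groups overlapped when scaled to library totals. Of 15 hypoxia genes 10 were higher and 5 lower (median 0.11, and 0.06 without control 4 and stretched 2), with *Bnip3* (1.24 ± 0.39) and *Ero1l* (0.80 ± 0.27) above the controls in every stretched library.

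Genes with lower values included small ribosomal proteins. Of 34 ribosomal protein genes 25 were lower and 9 higher, with a median of -0.37. In 8 every stretched library was below every control, against 5.3% of all genes, and in 0 above. The median was -0.62 without control 4 and stretched 2, and 21 of 34 lay below the controls, against 13.9% of all genes. *Rplp2*, a protein of the ribosomal stalk, held 1445, 973, 1274 and 873 CPM in the controls and 374, 533, 375 and 233 CPM in the stretched libraries (-1.59 ± 0.35, adjusted p = 0.134). *Rplp1*, its stalk partner, held 1721, 950, 1325 and 911 CPM in the controls and 448, 553, 402 and 292 CPM in the stretched libraries (-1.53 ± 0.35). *Rpl38* (-1.47 ± 0.39) and, outside the list, *Rps21* (-1.61 ± 0.36), *Rps12* (-1.58 ± 0.39) and *Rps26* (-1.19 ± 0.30) had the same shape. Ribosomal proteins have many processed pseudogenes, so their read assignment is uncertain. Across 14182 genes the log2 fold change had a Spearman rho of -0.20 with transcript length and of 0.17 with GC content, as a description across genes that share the same libraries. With offsets that remove these trends the ribosomal median was -0.48 and the class II median 0.93.

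The lower genes with the smallest p had varied roles. *Wdr89* held 142, 120, 154 and 88.9 CPM in the controls and 40.8, 47.6, 30.8 and 17.6 CPM in the stretched libraries (-1.89 ± 0.33, adjusted p = 0.134). *Pelp1*, a nuclear receptor coregulator, held 12.05 to 19.7 CPM in the controls and 4.25 to 4.83 CPM in the stretched libraries (-1.75 ± 0.30). Genes of the ubiquitin system were among them, with *Usp34* at -1.31 ± 0.25, *Usp50* at -1.67 ± 0.33 and *Ubqln2* at -1.38 ± 0.27. The nuclear import receptor *Tnpo2* (-1.14 ± 0.21), *Midn* (-1.52 ± 0.28), *Rbm27* (-1.08 ± 0.22) and *Bola2* (-1.56 ± 0.32) followed. *Amd2* (-2.16 ± 0.41), a retrogene of S-adenosylmethionine decarboxylase, shares reads with its parent gene and is uncertain. In all of these genes the groups did not overlap. *S100a4*, a calcium-binding protein of monocytes and fibroblasts, held 285, 169, 252 and 207 CPM in the controls and 79.9, 126, 85.1 and 53.9 CPM in the stretched libraries (-1.40 ± 0.31).

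Markers of the leukocyte classes overlapped between the groups with few exceptions. All 13 tested neutrophil markers had a positive log2 fold change (median 1.01), which rested on stretched 2. *S100a8*, the alarmin subunit that neutrophils hold in quantity, stood at 3040, 634, 4052 and 135 CPM in the controls and at 275, 21620, 87.9 and 40.9 CPM in the stretched libraries. Stretched 2 was the highest of the 8 libraries and the other 3 stretched libraries were low. Without control 4 and stretched 2 the list median was -2.26, and 3 of the 13 neutrophil markers were below every remaining control in every remaining stretched library, as were 13.9% of all genes. *Ngp*, a granule protein of immature neutrophils, had no read in control 6 and in stretched 1, 7 and 8.

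Of 16 T cell markers 10 were higher and 6 lower (median 0.12, which turned to -0.13 without control 4 and stretched 2), and summed to 214 to 716 CPM in the controls and 300 to 509 CPM in the stretched libraries. *Thy1* was nearly separated, at 40.7 to 161 CPM in the controls and 33.8 to 44.9 CPM in the stretched libraries (-1.27 ± 0.37). Of 8 tested markers of gamma-delta T cells and type 17 cells 7 were lower (median -0.45, and -0.72 without control 4 and stretched 2), with *Il17a* at 0.782 to 9.08 CPM in the controls and 1.30 to 2.76 CPM in the stretched libraries. Of 9 regulatory T cell and checkpoint genes 8 were higher (median 0.60, and 0.27 without control 4 and stretched 2). *Foxp3*, the lineage factor of regulatory T cells, was low, at 0.521 to 2.57 CPM in the controls and 2.50 to 4.25 CPM in the stretched libraries (1.51 ± 0.58).

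Of 12 mast cell markers 10 were higher and 2 lower (median 0.45), and without control 4 and stretched 2 the median was 0.10. *Tpsab1*, a tryptase, held 29.5 to 111 CPM in the controls and 140 to 288 CPM in the stretched libraries (1.43 ± 0.45), with stretched 2 the highest. Among macrophage markers *Selenop*, a selenium transport protein, held 51.7 to 211 CPM in the controls and 702, 92.9, 301 and 492 CPM in the stretched libraries, and *Timd4*, a receptor for dying cells, had a log2 fold change of 1.09 ± 0.33. *Maf*, the transcription factor of resident macrophages, was lower (-1.23 ± 0.44), with stretched 1 at 180 CPM inside the range of the controls. *Ly6c2*, the antigen of inflammatory monocytes, split the stretched libraries, at 1524 and 838 CPM in numbers 1 and 2 and at 132 and 79.5 CPM in numbers 7 and 8, against 172 to 325 CPM in the controls.

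Cytokine and chemokine genes had 16 of 22 and 17 of 22 members higher, with medians of 0.37 and 0.31, and 0.04 and -0.27 without control 4 and stretched 2. None of the 44 genes was free of overlap between the groups, against 6.56% of all genes above and 5.3% below the controls. Without control 4 and stretched 2, 5 of 22 chemokines and 0 of 22 cytokines lay above every control (15.6% of all genes). Below every control lay 0 chemokines and 2 cytokines (13.9% of all genes). With all libraries the neutrophil attractant *Cxcl1* came near to separation, at 260 to 496 CPM in the controls and 420 to 929 CPM in the stretched libraries (0.94 ± 0.34), as did *Cxcl16* (0.92 ± 0.33). The eosinophil attractant *Ccl11*, made mainly by stromal cells, held 71.2, 12.8, 19.3 and 13.4 CPM in the controls and 84.4, 23.2, 115 and 140 CPM in the stretched libraries (1.64 ± 0.65).

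Transcripts of non-immune cells were present, and their marker sums overlapped between the groups. All 12 fibroblast markers had a positive log2 fold change (median 0.99, and 1.25 without control 4 and stretched 2), and none was without reads in any immune library. Their sum was 7783, 5596, 1599 and 3096 CPM in the controls and 8569, 1522, 10138 and 10935 CPM in the stretched libraries. Stretched 1, 7 and 8 were thus above every control, and stretched 2 below every control. Of the 12 markers edgeR called 0, DESeq2 1 (5.51% of all genes) and limma-voom 6 (6.26% of all genes). In 0 of the 12 every stretched library was above every control (6.56% of all genes). Without control 4 and stretched 2, 7 of the 12 lay above the controls, against 15.6% of all genes on those libraries. *Serpinf1*, a secreted serpin of fibroblasts, held 275, 168, 63.9 and 112 CPM in the controls and 498, 122, 648 and 609 CPM in the stretched libraries (1.6 ± 0.56), and *Sfrp2* held 1.82 to 3.71 CPM in the controls and 17.8, 1.06, 21.7 and 14.1 CPM in the stretched libraries (2.34 ± 0.72). *Sfrp2* was called by edgeR without control 4 and stretched 2 (adjusted p = 0.0479). The part of fibroblast transcripts in the higher values of other genes was not tested.

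Markers of blood endothelial cells had 10 of 12 members lower (median -0.83, and -0.37 without control 4 and stretched 2) and those of lymphatic endothelial cells 7 of 8 (median -0.92, and -0.61 without them), with overlap in every member. Over all genes 6.56% lay above and 5.3% below every control. *Cdh5*, the adhesion molecule of endothelial junctions, held 161, 83.9, 27.9 and 45.3 CPM in the controls and 31.9, 13.4, 20.02 and 11.4 CPM in the stretched libraries (-2.05 ± 0.54, adjusted p = 0.156). Keratinocyte markers had 9 of 11 members lower (median -0.60, and -0.44 without control 4 and stretched 2), but the median ran from -1.04 to 1.10 when each library was left out. *Lor*, loricrin of the cornified layer, went the other way, at 14.3 to 17.6 CPM in the controls and 25.8 to 92.5 CPM in the stretched libraries (1.84 ± 0.36, adjusted p = 0.134).

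**Figure D4:**
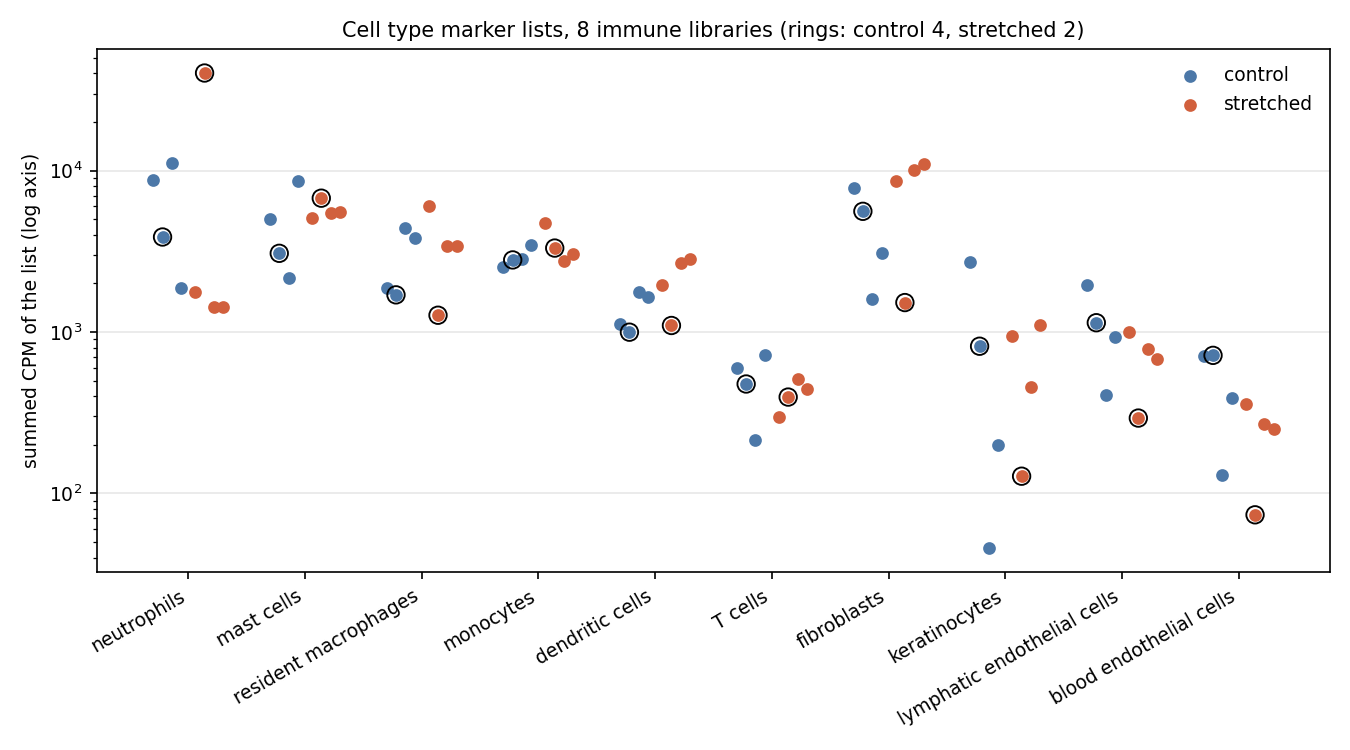
Summed CPM (scaled to the library total, log axis) of 10 cell type marker lists in the 4 control and 4 stretched immune libraries. Points are libraries, and rings mark control 4 and stretched 2. The neutrophil sum of stretched 2 is 40264 CPM, and the fibroblast sums of stretched 1, 7 and 8 lie between 8569 and 10935 CPM, above the controls.

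Mechanosensitive channels were measured as a group because the stimulus was a stretch. Of 12 tested 4 were higher and 8 lower, with a median of -0.07 that turned to 0.04 without control 4 and stretched 2. None was called by edgeR, as over all genes. DESeq2 called 1 (5.51% of all genes) and limma-voom 1 (6.26% of all genes). *Trpv2*, a cation channel of leukocytes, held 28.1 to 42.5 CPM in the controls and 44.9 to 85.6 CPM in the stretched libraries (0.64 ± 0.27, adjusted p = 0.271), with no overlap and with stretched 2 the highest. Scaled to library totals, *Trpv2* in control 4 lay inside the range of the stretched libraries. *Lrrc8a*, the obligatory subunit of volume-regulated anion channels, held 9.91 to 22.6 CPM in the controls and 5.53 to 10.1 CPM in the stretched libraries (-1.17 ± 0.36). Both DESeq2 and limma-voom called this gene lower, though its groups overlapped. *Piezo2* was highest in control 4, at 50.8 CPM against 7.46 to 13.1 CPM in the other controls. Of 17 genes of the YAP/TEAD list 7 were higher and 10 lower (median -0.16, and -0.01 without control 4 and stretched 2). Of 12 glucocorticoid response genes 6 were higher and 6 lower, with a median of -0.05 that turned to 0.21 without them.

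The immune effect was set beside the stromal effect of the same treatment. The difference of the effects was tested on all 16 libraries, and edgeR called 0 of 18295 genes (smallest adjusted p 0.0573, with 4232 genes at an unadjusted p under 0.05), while DESeq2 called 1626 (8.89%). Leaving out control 6 gave 1495 edgeR calls, leaving out stretched 2 gave 114 and leaving out control 4 gave 29. Stromal stretched 7 and 8 also stood apart, with reads on 35821 and 32977 genes against 23341 to 25955 in the other 6 stromal libraries, and with 424 and 208 CPM on receptor genes against at most 23.7 CPM. Without them edgeR called 0 of 19615 genes for the difference (smallest adjusted p 0.448, with 2042 genes at an unadjusted p under 0.05). The genes were named for their immune values, so a smaller stromal value is no finding in itself. Of the genes named, the smallest adjusted p, 0.0573, was reached by *Coro1b*, *Naa60*, *Tspan31* and *Pgam1*. *Coro1b* had a stromal log2 fold change of -0.19 ± 0.18 against 2.43 ± 0.38 in the immune fraction, and *Naa60* had 0.03 ± 0.18 against 2.70 ± 0.43. *G6pdx* had a stromal value of -0.51 ± 0.34 (adjusted p of the difference 0.0653). For *Coro1b* the stromal value was -0.17 ± 0.24 without stromal stretched 7 and 8. The class II list had a stromal median of -0.28, which turned to 0.22 without them.

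Some genes had values of the same sign in both fractions. In the stromal fraction alone edgeR called 800 of 16074 genes (4.98%), and 0 of 16601 without stromal stretched 7 and 8 (smallest adjusted p 0.248, with 2263 genes at an unadjusted p under 0.05). Each stromal call below was thus made only with those libraries. *Mafk* had a stromal log2 fold change of 1.07 ± 0.18 and was called there (edgeR adjusted p = 0.042), as was *Plk3* at 1.17 ± 0.18 (adjusted p = 0.042). Without stromal stretched 7 and 8 these values were 1.08 ± 0.22 and 1.15 ± 0.22 (adjusted p = 0.267 for both). *Lilrb4a* had 2.02 ± 0.53 (adjusted p = 0.052). Among lower genes, *Wdr89* was called in the stromal fraction at -1.28 ± 0.28 (adjusted p = 0.043), *Rplp1* at -1.32 ± 0.31 (adjusted p = 0.046) and *Rplp2* at -1.19 ± 0.29 (adjusted p = 0.048). Without those libraries the 3 genes stood at -1.04 ± 0.28, -1.07 ± 0.32 and -0.95 ± 0.29 (adjusted p = 0.267, 0.275 and 0.281). The ribosomal list had a stromal median of -0.97, and of -0.72 without them. The difference between the fractions did not pass for any of these 6 genes, and this does not show that the effects were alike.

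**Figure D5:**
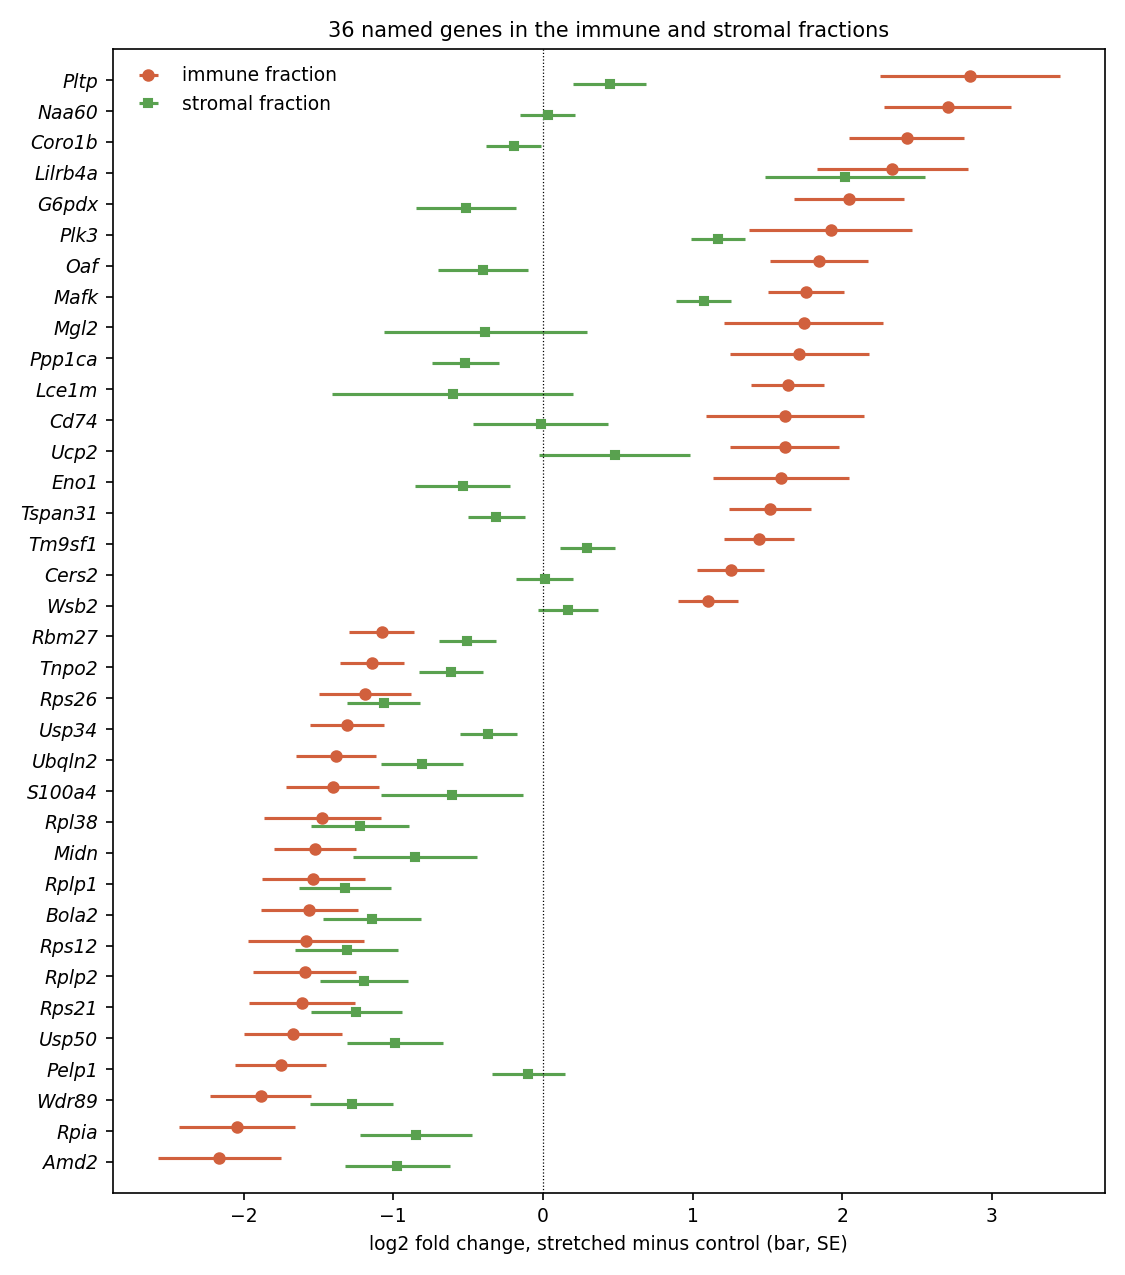
Log2 fold change (stretched minus control) with its SE for 36 named genes in the immune fraction (circles) and the stromal fraction (squares), ordered by the immune value. *Coro1b* lies at 2.43 in the immune and -0.19 in the stromal fraction, while *Lilrb4a* lies at 2.34 and 2.02. The genes were named for their immune values.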

How the data were processed

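Per the labels' protocols, RNA of sorted mouse skin cells went into Nextera XT libraries after cDNA synthesis by SMART-Seq mRNA LP. Per the submitters' processing notes, FastQC 0.11.9 served for read quality and STAR (version not given) for alignment to mm10. Raw read counts per Ensembl gene, not normalized, make up the deposited table. The counting tool, strand setting, annotation release and handling of multi-mapping reads are not stated in the sources used here. Of 55487 gene IDs, 55394 matched GENCODE M21 (GRCm38), which supplied symbols and coordinates. Where IDs shared a symbol (107 symbols), the most abundant ID carried it.

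The 8 immune libraries (4 per group) were fitted with edgeR 4.0.16 (R 4.3.3), using filterByExpr at a count of 10 and a total of 15, TMM factors, the quasi-likelihood F test and Benjamini-Hochberg adjustment, calling genes at an adjusted p under 0.05. The difference of effects between fractions used all 16 libraries. Standard errors were derived from the F statistic. CPM values of separate genes are TMM-scaled, and list sums are scaled to the library total. The test was tested on simulated counts. Without molecular identifiers, PCR copies were counted as reads.

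Alternatives were RLE and upper-quartile factors, DESeq2 1.42.0, limma-voom (limma 3.58.1) with quality weights, no filter, 50 or more reads in 4 or more libraries as the stricter filter, all 16 libraries in 1 fit, thinning to the shallowest library, detected genes as covariate, offsets for length and GC content (splines with 4 degrees of freedom), and the omission of each library or of control 4 with stretched 2. The last omission with DESeq2, its counts of groups without overlap, and the omission of stromal stretched 7 and 8 were added after seeing the data. The libraries, gene lists and rules were chosen with earlier results of these data known.

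Genes were named by rule: *Ptprc*; up to 10 higher and 10 lower with the smallest p (groups not overlapping, mean of at least 10 CPM in the higher group); up to 10 higher and 10 lower with the largest change (mean of at least 100 CPM); and up to 4 genes of each list, by p. Predicted genes, pseudogenes, receptor segments and small RNAs were left out, and the text uses a subset. The other class II genes are named to state their level. *S100a8* and 6 glycolytic genes were named after their values were seen. Some genes that the rule names are not reported here.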

Additional observations from a re-analysis of the deposited data

Results flagged for a closer look

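Within each group of 4 libraries, a value was marked where its gap to the nearest other library exceeded Dixon's 95% critical share of the group's range. Of 340 groups examined 32 were marked (9.41%). The nominal rate of about 1 in 20 holds for independent normal values. The groups examined share the same libraries and use a linear scale. They include *S100a8*, named after its values were seen, and the neutrophil sum that set stretched 2 apart. The nominal rate is thus no yardstick for this share. Of the 32 values 12 were in stretched 2 and 4 in control 4.

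In stretched 2, high values were *Plk3* at 322 CPM, *Aldoa* at 919 CPM, *Selplg* (the selectin ligand PSGL-1) at 957 CPM, *Trpv2* at 85.6 CPM, *Tpsab1* at 288 CPM and *Rpia* at 8.71 CPM. Neutrophil genes stood far above the other stretched libraries, with *Ly6g* at 163 CPM, *Il1r2* at 4314 CPM, *S100a8* at 21620 CPM and the neutrophil sum at 40264 CPM. The cytokine sum was 18171 CPM and the sum of the small Maf and NRF2 list 40695 CPM. In stretched 1, *Maf* (180 CPM), *Nts* (223 CPM) and *Lrrc8a* (10.1 CPM) were high and *Xbp1* (231 CPM) was low.

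In control 4, *Piezo2* was high (50.8 CPM) and *Tpi1* low (75.9 CPM), 35303 genes were detected, and receptor genes held 6209 CPM. In control 5, *Maf* (462 CPM), *Rbm27* (125 CPM), *Il5* (22.2 CPM), *Il1a* (38.3 CPM), *Hk2* (494 CPM) and the lysosomal sum (6661 CPM) were high, and the basophil and eosinophil sum (19.6 CPM) was low. In control 6, *Hsf1* (32 CPM), the sum of NK and innate lymphoid cell genes (2173 CPM) and that of red blood cell genes (51.2 CPM) were high. In control 3, *Ccl11* (71.2 CPM) and the ribosomal sum (26663 CPM) were high.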

How the results depend on the processing

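The edgeR count of 0 called immune genes stood with RLE and upper-quartile factors, no filter, the stricter filter, thinning, the covariate, and length and GC offsets. It was 781 with DESeq2, 888 with limma-voom, 667 with all 16 libraries in 1 fit, 21 without control 4 and stretched 2, 1550 with DESeq2 on those 6 libraries, and 0 to 45 when each library was left out, 45 being without stretched 2. The difference between fractions gave 0 calls with RLE, 1626 with DESeq2, 120 with the stricter filter 0 to 1495 over the omissions of immune libraries and 0 without stromal stretched 7 and 8, where the stromal calls fell from 800 to 0. The cause of these gaps was not tested. RLE moved the median of that difference over all genes from 0.03 to -0.19, and without the filter the immune median was -0.81. No paired analysis was possible because no title number occurs in both immune groups.

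Of 2411 log2 fold changes (121 genes under 20 alternatives, 9 not fitted) 2391 kept their sign, and 115 genes kept it throughout. The turned values were *Ptprc* at -0.14 (limma-voom), -0.002 (thinned), -0.30 (without control 4 and stretched 2) and -0.32 (the same with DESeq2), with -0.12 to 0.36 over the omissions. *Il1r2* was at -1.36 and -1.40 in those 2 fits and at -1.15 to 1.69 over the omissions, and *S100a8* at -4.15, -4.19 and -3.86 to 2.10. Limma-voom gave -2.095 for *S100a8*, -2.08 for *Ly6g* and -0.049 for *Ly6c2*, and the omissions gave -4.77 to 3.17 for *Ly6g*. *Ciita* was at -0.007 with upper-quartile factors and at -0.09 to 0.255 over the omissions. Control depth, at most 6662268 counts, limits low genes such as *H2-Oa*.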
